A study of Bos taurus with 2 samples.

Results

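The genes described here build the route by which proteins leave the cell: the machinery that brings new proteins into the endoplasmic reticulum (ER), and the vesicle coats that carry them between the ER and the Golgi. They were chosen by symbol from the genes file of a single-cell RNA series on bovine mammary gland, as the symbols that begin with SEC11, SEC22, SEC23, SEC24, SEC31, SEC61, SEC62, SEC63, SSR, SPCS, PDIA, KDELR or TMED, with SRP followed by a digit, or with COP followed by A, B, E, G or Z. This gave 59 genes of 27270. In that prefix set, SSRP1 is not a secretory gene: it is a subunit of the FACT histone chaperone in the nucleus. It is counted in the totals over the 59 genes and named as such where its own values are given. SEC23IP, a partner of SEC23, is counted with the COPII coat.

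The series holds 2 libraries of dissociated mammary gland from Holstein dairy cattle, 1 from a newborn and 1 from a lactating adult. The labels name no genetic change or treatment. The labels give no age beyond these stages and no number of animals per library. Fat was cut away, the tissue was digested with enzymes and strained, and dead cells were removed from a suspension only if its viability was low. Stage and library cannot be told apart, so no p-value is given, and intervals (95%, exact) cover counting error only.

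Secreted and membrane proteins are recognised while they are being made, when the signal recognition particle (SRP) binds the signal sequence and brings the ribosome to the SEC61 channel. The TRAP complex (SSR1 to SSR4) sits beside the channel, signal peptidase (a SEC11 enzyme with SPCS subunits) removes the signal sequence, and disulfide isomerases (PDIA genes) help the chain to fold. COPII coats bud vesicles from the ER, p24 proteins (TMED genes) sort cargo, COPI coats return vesicles from the Golgi, and KDEL receptors bring back escaped ER proteins. Plasma cells, which release antibody, and the alveolar cells that make milk protein are known for heavy use of this route.

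Cells were sorted into types by clustering each library without the 59 genes and by markers, and UMIs (unique molecular identifiers, 1 per captured RNA molecule) were summed per type. A level is a gene's UMIs scaled to the total of its cell type, as CPM, where 10000 CPM is 1% of UMIs. Levels are compared between cell types for a gene and not between genes. The newborn library had 13772 barcodes and 65597671 UMIs, and the adult library had 15897 barcodes and 85388618 UMIs. Of these, 12206 newborn and 12964 adult cells were kept, 25170 in all, beside 24472 cells stated in the series' design text. The libraries shared 57 barcodes. Types with at least 50 cells were used: 4 newborn and 11 adult types. Milk-secreting-like cells held all 12 of their markers and plasma cell-like cells all 9, while the B cell-like class, with 79 cells and 326495 UMIs, also held markers of other cells, given below. Milk protein RNA reached between 0.778% and 7.26% of UMIs in the adult types other than the milk-secreting-like, against at most 0.000143% in the newborn types. Whether this is free RNA was not tested.

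Plasma cell-like cells carried the most RNA of these genes. The 59 genes took 2.06% of their UMIs (2.03 to 2.09), against 0.238% to 0.771% in the other 10 adult types and 0.550% to 0.712% in the 4 newborn types. Fibroblast-like cells followed, with 0.712% in the newborn and 0.771% in the adult. Endothelial-like cells had 0.601% in the newborn and 0.703% in the adult. T or NK cell-like cells had 0.655% in the newborn and 0.620% in the adult, and mast cell-like cells had 0.550% in the newborn and 0.532% in the adult. The adult dendritic cell-like, luminal-like, macrophage-like and B cell-like cells had 0.651%, 0.639%, 0.508% and 0.496%. The lowest shares were those of neutrophil-like cells, at 0.2498%, and of milk-secreting-like cells, at 0.238%.

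The low share in milk-secreting-like cells stood beside a very large amount of milk protein RNA. The 7 milk protein genes (caseins, LALBA, PAEP and GLYCAM1) took 75.8% of the UMIs of these cells. When milk protein, mitochondrial and ribosomal protein genes were left out of the total, the 59 genes took 1.42% in milk-secreting-like cells, second after 2.82% in plasma cell-like cells and above the 0.301% to 1.02% of all other types. Per cell, plasma cell-like cells had 286.5 UMIs of the 59 genes, milk-secreting-like cells 114.3 and luminal-like cells 106.1, at median totals of 12690, 35372 and 11537 UMIs per cell. T or NK cell-like cells, at 1.01% in the newborn and 1.02% in the adult, then stood level with fibroblast-like cells, at 0.984% and 0.967%.

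**Figure D1:**
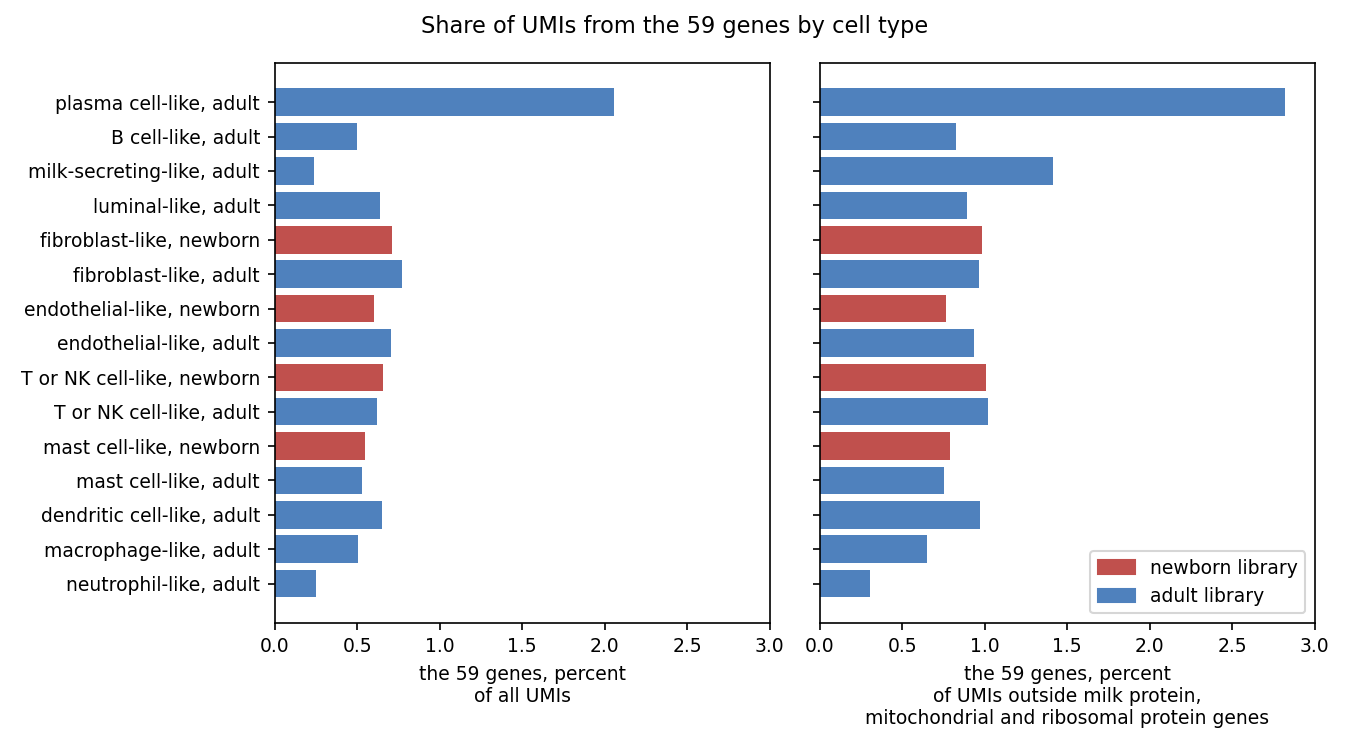
Bars give the percent of UMIs that came from the 59 genes in each cell type, of all UMIs on the left and of UMIs outside milk protein, mitochondrial and ribosomal protein genes on the right; red marks the newborn and blue the adult library. Plasma cell-like cells are highest in both panels (2.06% and 2.82%), and milk-secreting-like cells stand at 0.238% on the left and 1.42% on the right.

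Shares also varied between clusters of a type. The 11 newborn fibroblast-like clusters ranged from 0.595% in cluster N2, with SOD2, GRO1 and CX3CL1 as leading genes, to 0.830% in cluster N13. Among adult endothelial-like clusters, the lymphatic clusters A0 and A7 had 0.752% and 0.691%, and the blood vascular cluster A19 had 0.507%. The luminal-like cluster A14, whose leading genes include BDA20, SERPINA1 and KRT18, had 0.726%, and cluster A8, led by LCN2 and WFDC2, had 0.623%. The unnamed clusters A18.5, A22 and N14.1, of 12, 17 and 20 cells, had 1.35%, 1.22% and 1.06%. They stood between plasma cell-like cells and all other named clusters. Outside milk protein, mitochondrial and ribosomal protein genes they had 1.90%, 1.69% and 1.59%, above the 1.42% of milk-secreting-like cells. The remaining unnamed clusters, A12, N6 and N10, of 369, 798 and 478 cells, had 0.733%, 0.598% and 0.475%. N6 and N10 held enough fibroblast markers for that name but were left unnamed for their leading genes. With N10 counted, the newborn fibroblast-like range would start at 0.475%.

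Of the 48 genes with at least 20 UMIs in the adult type where they were highest, 26 (54.2%) were highest in plasma cell-like cells, where 3.75% of the 9537 genes meeting the same limit were. Fibroblast-like cells held the highest level of 14 (29.2%, against 19.4% of all genes), endothelial-like cells of 6 (12.5%, against 22.7%), and B cell-like and dendritic cell-like cells of 1 each. The limit is met in the very type where a gene is highest. Scaled outside milk protein, mitochondrial and ribosomal protein genes (the narrower scale), the counts were 25 for plasma cell-like, 10 for fibroblast-like, 6 for endothelial-like and 4 for milk-secreting-like cells, against 2.89%, 14.8%, 18.12% and 15.6% of all genes, and 1 each for B cell-like, dendritic cell-like and T or NK cell-like cells. The 4 highest in milk-secreting-like cells were KDELR1, SEC63, SRP72 and TMED3. All TRAP and PDIA genes, SEC61A1, SEC61B, SEC61G, SEC11C and the SPCS genes were highest in plasma cell-like cells. The coat genes COPA, COPB1, COPB2, COPG1, SEC23A, SEC24D and SEC31A were highest in fibroblast-like cells, although COPB1 was highest in endothelial-like cells on the narrower scale. TMED8, with 12 newborn and 14 adult UMIs, was the one gene below 20 UMIs in each whole library. No gene of the 59 was at 0 UMIs in either.

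**Figure D2:**
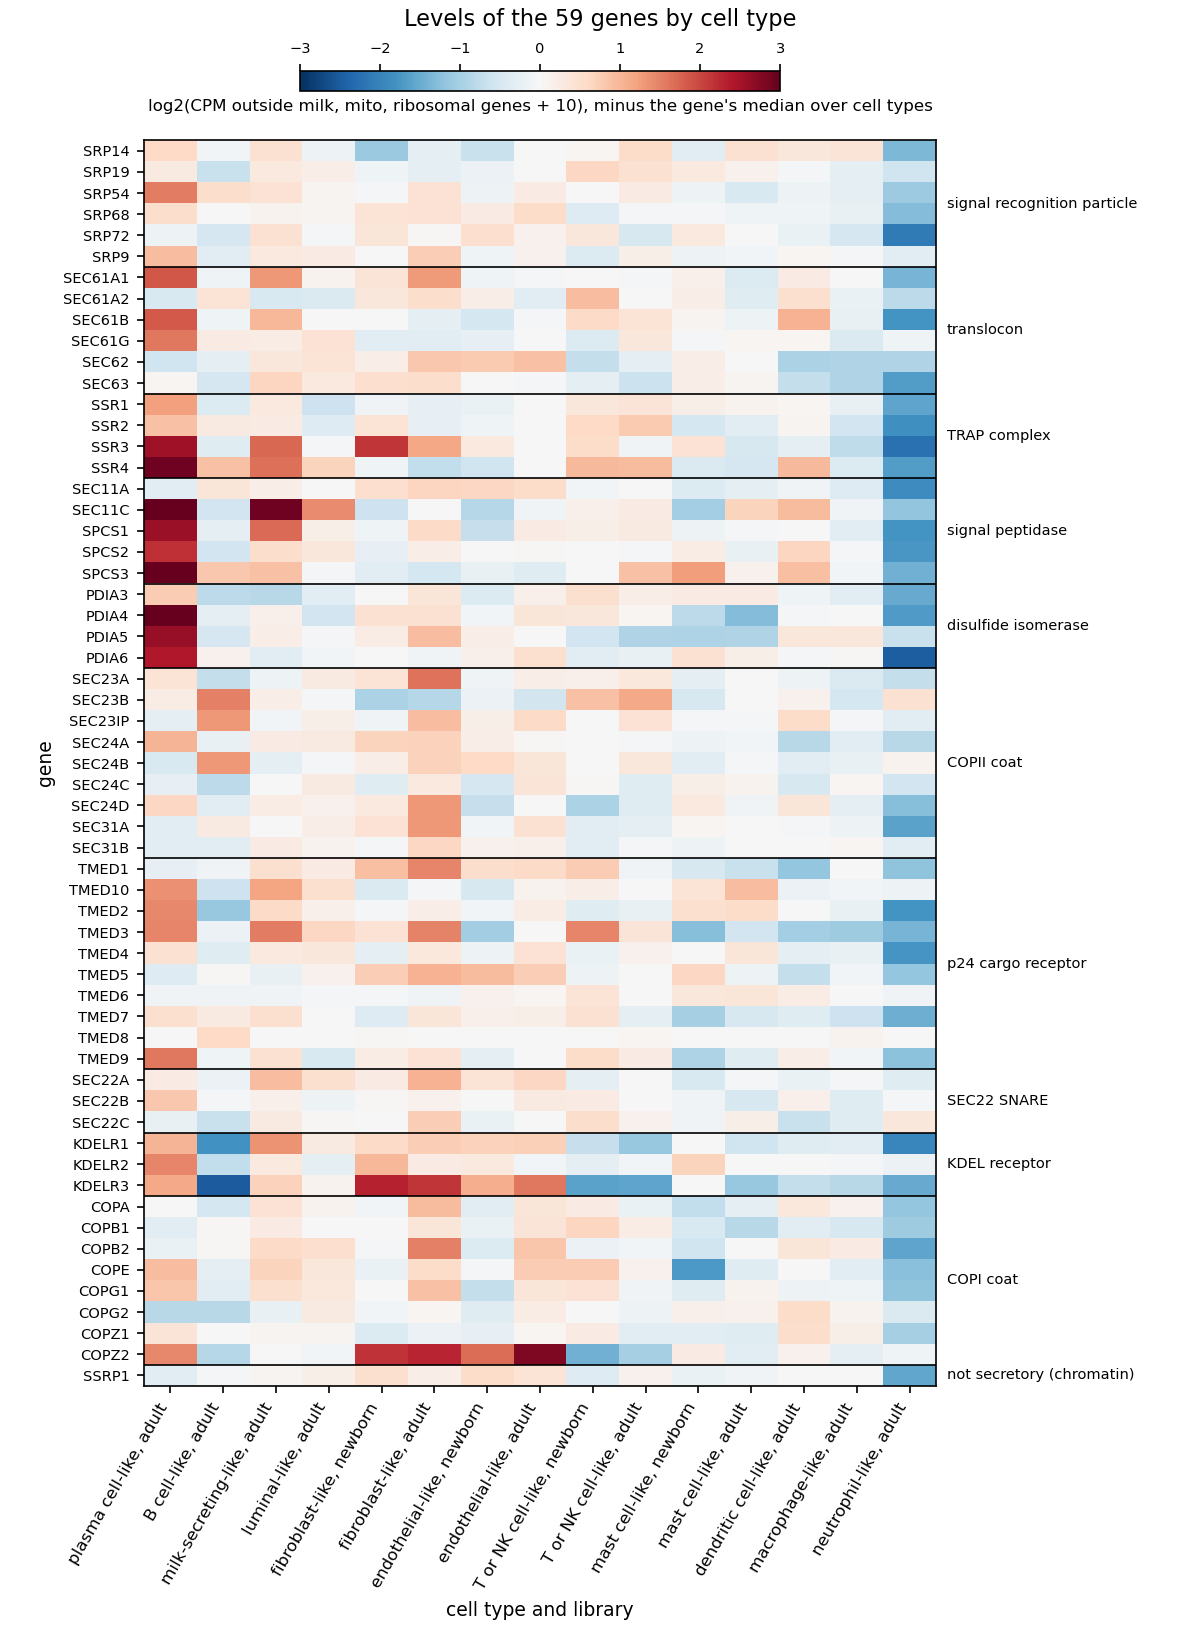
Each row is a gene, grouped by role, and each column a cell type of 1 library; colour gives log2 of the level outside milk protein, mitochondrial and ribosomal protein genes plus a pseudocount of 10, minus the gene's median over the 15 columns. The TRAP, disulfide isomerase, SEC11C and SPCS rows are most red in plasma cell-like cells, while SEC11A is highest in fibroblast-like cells of the adult, SEC11C and SSR3 are also high in milk-secreting-like cells, and COPZ2 and KDELR3 are high in fibroblast-like and endothelial-like cells.

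Plasma cell-like cells were compared with B cell-like cells, the lineage from which antibody-secreting cells arise. Of the 59 genes, 40 had at least 20 UMIs and 20 CPM in the higher class, and 29 of these were at least 2-fold higher in plasma cell-like cells, where 17.8% of all genes meeting the same limits were. A single gene, SEC23B, was at least 2-fold lower, against 28% of all genes. The median log2 ratio was 1.91 for the measured members and -0.28 for all measured genes. A gene that met these limits through the plasma cell-like class alone had to be high there. The other members are not counted. Outside milk protein, mitochondrial and ribosomal protein genes, 28 members were higher, against 14.3% of all genes, and 1 lower, against 38.4%. Centred on the median gene, 36 were higher, against 24.2%, and 0 lower, against 20.2%.

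By role, the median log2 ratio was 3.48 for the disulfide isomerases, 3.18 for the KDEL receptors, 3.11 for signal peptidase, 2.13 for the TRAP complex, 2.08 for p24 genes, 1.63 for the translocon, 1.55 for COPI, 1.45 for COPII and 0.99 for SRP. The KDEL receptor median is the value of KDELR3, whose 0 UMIs in B cell-like cells were set to a floor of 3 UMIs. These medians cover the measured members only. Summed over all its genes, the COPII coat stood at 194 CPM in plasma cell-like and 211 CPM in B cell-like cells. SEC23IP and SEC24B, each at 21.4 CPM on 7 UMIs in B cell-like cells, did not meet the limits. SEC11C, the alternative catalytic subunit of signal peptidase, had 1024 CPM (813 UMIs) in plasma cell-like cells and 39.8 CPM (13 UMIs) in B cell-like cells, a 25.7-fold difference (14.95 to 48.5). Its paralogue SEC11A did not share this: it had 95.7 CPM in plasma cell-like and 132 CPM in B cell-like cells, a ratio of 0.727 (0.493 to 1.08). The accessory subunits SPCS1, SPCS2 and SPCS3 were 10.4-fold, 8.61-fold and 5.57-fold higher in plasma cell-like cells. PDIA4 had 821 CPM in plasma cell-like and 39.8 CPM in B cell-like cells, 20.6-fold higher (11.97 to 38.9). PDIA5 was 28.8-fold higher, but on 70 UMIs against 1, so that its interval ran from 5.00 to 1153. PDIA6 was 6.03-fold and PDIA3, the isomerase of glycoproteins, 3.64-fold higher.

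Genes of the channel and the TRAP complex were also higher. SSR4, a TRAP subunit, had 5074 CPM in plasma cell-like and 1011 CPM in B cell-like cells, 5.02-fold higher (4.49 to 5.63). SSR3, another, had 1277 CPM and 135 CPM in the same order, 9.47-fold higher (7.01 to 13.1). SEC61A1, the channel itself, was 5.34-fold, SEC61B 4.79-fold and SEC61G 3.09-fold higher in plasma cell-like cells. SEC62, which serves proteins that enter after translation, had 144 CPM in plasma cell-like and 147 CPM in B cell-like cells, with a ratio of 0.976 (0.691 to 1.40). SRP genes differed less: SRP54, which binds the signal sequence, was 2.77-fold higher, and SRP14, which slows translation, stood at 1.99-fold (1.42 to 2.84).

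All 3 KDEL receptors were higher in plasma cell-like cells. KDELR1 had 228 CPM in plasma cell-like and 21.4 CPM in B cell-like cells, 10.6-fold higher (5.06 to 26.8). KDELR2 was 5.92-fold higher. KDELR3 had 66 UMIs in plasma cell-like cells and 0 in B cell-like cells. Its ratio of 9.04 was taken against a floor of 3 UMIs over the class, and is not a lower bound. Among the p24 genes TMED2, TMED10, TMED3, TMED9 and TMED4 were 2.22-fold to 7.77-fold higher, and TMED7 had a ratio of 1.44 (0.697 to 3.26).

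Coat genes were mixed. COPE and COPG1 were 2.93-fold and 2.96-fold higher in plasma cell-like cells, and COPZ2 15.2-fold higher on 37 UMIs against 1 (2.57 to 617). COPA and COPZ1 had ratios of 1.97 (0.738 to 6.62) and 1.64 (0.836 to 3.53). Of the COPII coat, SEC24A and SEC24D were 3.70-fold and 2.74-fold higher, on 36 and 40 UMIs in plasma cell-like cells. Both met the limits through that class alone, and the summed COPII level, given above, was not higher in it. SEC23B had 44.1 CPM in plasma cell-like and 98.0 CPM in B cell-like cells, a ratio of 0.450 (0.270 to 0.750), on 35 and 32 UMIs. Without the B cell-like cluster A18.1 no gene was at least 2-fold lower, and 30 were higher. None of the SEC22 genes met the limits.

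Markers of other cells were unequal between these classes. The T cell markers (12 of 12 detected in plasma cell-like, 11 of 12 in B cell-like cells) summed to 325 CPM in plasma cell-like and 741 CPM in B cell-like cells. The NK cell markers (9 and 7 of 11) summed to 376 and 784 CPM and the dendritic cell markers (6 and 5 of 10) to 71.8 and 689 CPM, in the same order. The 12 milk-secreting markers, all detected in both, summed to 7842 CPM in plasma cell-like and 17106 CPM in B cell-like cells. Levels of SSR4, SEC11C and PDIA4 in T or NK cell-like cells were 1074, 75.7 and 51.7 CPM. The part of RNA from other cells in the ratios was not tested.

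**Figure D3:**
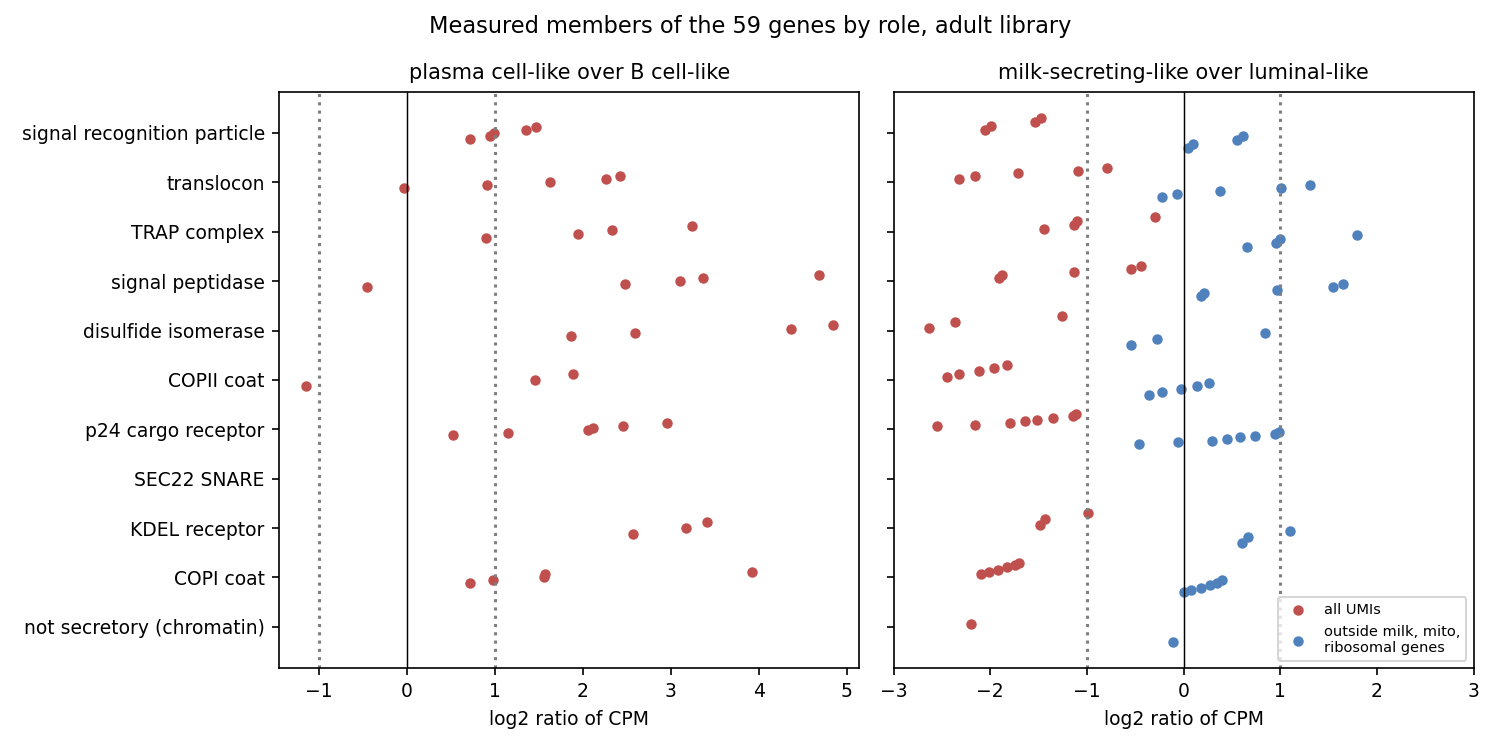
Each point is a measured gene of the 59, placed by its log2 ratio of CPM and its role; dotted lines mark a 2-fold difference. On the left, plasma cell-like over B cell-like cells, most points lie right of 1 (29 genes) and only SEC23B left of -1; on the right, milk-secreting-like over luminal-like cells, all points of the whole-UMI scale (red) lie below 0, and the same 44 genes scaled outside milk protein, mitochondrial and ribosomal protein genes (blue) lie between -0.54 and 1.79.

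Other genes of the same pathways were taken from 7 lists. Unlike the 59 genes they were among those used for clustering, so their values are a description. The shares of all genes at least 2-fold higher in plasma cell-like cells (17.8%, and 14.3% on the narrower scale) are those given above. Of the 19 measured ER chaperones and folding enzymes, 16 were at least 2-fold higher and 0 lower. Among them MZB1, a chaperone of antibody assembly and a leading gene of the plasma cell cluster, had 4960 CPM in plasma cell-like and 21.4 CPM in B cell-like cells, and TXNDC5 was 33.8-fold higher (22.1 to 54.8). ERO1A, which reoxidises disulfide isomerases, had the smallest ratio, 1.37 (0.531 to 4.17). Of 10 measured oligosaccharyltransferase genes, which attach sugars to entering proteins, 9 were higher, led by OSTC (9.001-fold) and KRTCAP2 (7.74-fold). Of 8 SRP receptor and translocon partners 6 were higher, with SIL1 at 11.1-fold on 27 UMIs against 1, SRPRB at 4.57-fold and HSPA5, the main ER chaperone, at 1.69-fold. Of 9 measured genes of ER-associated degradation 6 were higher, with EDEM3 and EDEM2 at 37.0-fold and 11.9-fold, each against 1 UMI, and SYVN1 at 1.20-fold. Of 6 ER stress sensors and factors 4 were higher, with ERN1 at 18.09-fold on 44 UMIs against 1, HERPUD1 at 7.20-fold and DDIT3 at 0.822. Of 16 COPII partners 8 were higher, with BET1 at 7.61-fold on 37 UMIs against 2, the cargo receptor LMAN1 at 6.25-fold and SAR1A at 0.866. Of 7 COPI partners 2 were higher, ARFGAP3 at 3.00-fold and GOLGA2 at 2.40-fold, while ARF1 had a ratio of 0.793. On the narrower scale 5 of 15 COPII partners and 1 of 6 COPI partners were higher. None of these lists had a gene at least 2-fold lower.

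Milk-secreting-like cells were compared with luminal-like cells, the keratin-rich epithelial cells of the same library. On the whole-UMI scale, 0 of 44 measured members were at least 2-fold higher, against 1.56% of all genes, and 39, SSRP1 among them, were lower, against 92.3% of all genes. The median log2 ratio was -1.73 for the members and -2.27 for all measured genes, so the members lay less far down than the typical gene. Scaled outside milk protein, mitochondrial and ribosomal protein genes, 6 of 47 were higher, against 13.4% of all genes, and 0 lower, against 18%. The median log2 ratio was then 0.38 for the members and -0.09 for all genes. With ratios centred on the median gene, 12 of 44 were higher, against 12.6%, and 0 lower, against 15.7%. The 12 milk-secreting markers summed to 759991 CPM in milk-secreting-like and 10279 CPM in luminal-like cells, and the 12 luminal markers to 2501 CPM in milk-secreting-like and 24764 CPM in luminal-like cells. The part of RNA shared between these classes in the ratios was not tested.

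Rescaling moves all genes by the same factor, so the order of genes is the same on each scale. SSR3 stood at the upper end, with 166 CPM in milk-secreting-like and 204 CPM in luminal-like cells on the whole-UMI scale and a ratio of 0.812 (0.771 to 0.856). Outside milk protein, mitochondrial and ribosomal protein genes it had 989 CPM in milk-secreting-like and 285 CPM in luminal-like cells, a ratio of 3.47. SPCS1, SEC11C, SEC61A1, KDELR1 and SEC61B followed, with ratios of 0.735, 0.685, 0.579, 0.503 and 0.470 on the whole-UMI scale and of 3.13, 2.92, 2.47, 2.15 and 2.004 on the other. These belong to the TRAP complex, the signal peptidase, the channel and the KDEL receptors. SSR4 stood next, with 483 CPM in milk-secreting-like and 1036 CPM in luminal-like cells and a ratio of 1.99 on the narrower scale.

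At the lower end of the 44 genes were PDIA3, TMED5, SEC24C, PDIA6, SEC31A and SEC61G. COPG2, a COPI subunit that met the limits only on the narrower scale, had 13.2 CPM in milk-secreting-like and 22.2 CPM in luminal-like cells there, a ratio of 0.594 on 44 and 196 UMIs, below those 6 genes. PDIA3 had 27.0 CPM in milk-secreting-like and 168 CPM in luminal-like cells, a ratio of 0.161 (0.146 to 0.177), and of 0.687 on the narrower scale. PDIA6 had ratios of 0.194 and 0.828, SEC31A, the outer COPII coat, of 0.200 and 0.854, and SEC61G of 0.200 and 0.855. By role, the median log2 ratio on the narrower scale was 0.97 for the TRAP complex, 0.96 for signal peptidase, 0.66 for KDEL receptors, 0.51 for p24 genes, 0.44 for SRP, 0.38 for the translocon, 0.18 for COPI, -0.03 for COPII and -0.27 for the disulfide isomerases. SEC23B, SPCS3, SRP14, KDELR2, TMED2 and COPE, which had the highest CPM of their roles when summed over the 15 cell types, had narrower-scale ratios of 1.20, 1.95, 1.53, 1.52, 1.36 and 1.27. SSRP1, the chromatin gene, had ratios of 0.218 and 0.928. SEC22A did not meet the limits on the whole-UMI scale.

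Of the pathway lists, on the narrower scale, 3 of 8 SRP receptor and translocon partners, 5 of 18 ER chaperones and folding enzymes, 3 of 10 genes of ER-associated degradation, 3 of 16 COPII partners, 2 of 12 COPI partners, 1 of 8 ER stress genes and 0 of 11 oligosaccharyltransferase genes were at least 2-fold higher in milk-secreting-like cells, where 13.4% of all genes were. At least 2-fold lower were 2 ER stress genes and 1 degradation gene, against 18% of all genes. On the whole-UMI scale no list had a gene at least 2-fold higher, and 11 of 11 oligosaccharyltransferase genes, 7 of 7 ER stress genes and 13 of 14 COPII partners were lower, beside 92.3% of all genes. The largest ratios, 1.12, 0.826 and 0.717, were those of MCFD2, ERP29 and TRAM1. MCFD2, a partner of the cargo receptor LMAN1, had 52.2 CPM in milk-secreting-like and 46.7 CPM in luminal-like cells. ERP29, an ER folding factor, had 100.0 CPM in milk-secreting-like and 121 CPM in luminal-like cells. TRAM1, a partner of the channel, had 59.9 CPM in milk-secreting-like and 83.5 CPM in luminal-like cells. CREB3L2, a transcription factor held in the ER membrane, had the lowest ratio, with 7.50 CPM in milk-secreting-like and 85.0 CPM in luminal-like cells.

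The share of a paralogue pair's UMIs that 1 member takes does not depend on the scale, and it differed between cell types. SEC11C made up 91.5% of SEC11A and SEC11C UMIs in plasma cell-like cells (89.4 to 93.2) and 23.2% in B cell-like cells (12.98 to 36.4). It made up 81.4% in milk-secreting-like cells (80.1 to 82.7) and 63.4% in luminal-like cells (61.9 to 64.9). In fibroblast-like cells it was 20.9% in the newborn and 27.9% in the adult (21.9 to 34.6). Endothelial-like cells had 16.8% in the newborn (11.5 to 23.2) and 27.6% in the adult (26.1 to 29.0). Mast cell-like cells had 26.9% in the newborn (19.9 to 34.9) and 55.4% in the adult (48.7 to 61.9). The intervals, which cover counting error only, do not overlap in endothelial-like or in mast cell-like cells. How many other paralogue families do the same was not counted. The mix of cells in the endothelial-like class and the markers of other cells in both classes differed between the libraries, as given below. Their part in these shares was not tested. T or NK cell-like cells had 42.2% in the newborn (29.9 to 55.2) and 42.8% in the adult (41.2 to 44.5). PDIA4 made up 37.6% of the UMIs of the 4 PDIA genes in plasma cell-like cells and between 4.29% and 20.5% in every other type. Adult dendritic cell-like and neutrophil-like cells had SEC11C shares of 57.4% (49.0 to 65.5) and 51.1% (36.1 to 65.9), both with intervals that hold an equal split.

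COPZ2, one of the paired zeta subunits of the COPI coat, took its largest shares in fibroblast-like and endothelial-like cells. It made up 73.8% of COPZ1 and COPZ2 UMIs in newborn and 71.6% in adult fibroblast-like cells, and 62.7% in newborn and 75.4% in adult endothelial-like cells. In adult T or NK cell-like cells it made up 7.47% (5.46 to 9.92). Its level was 81.1 CPM in newborn and 97.7 CPM in adult fibroblast-like cells. Endothelial-like cells had 60.1 CPM (newborn) and 135 CPM (adult), and the adult T or NK cell-like cells 2.11 CPM. In newborn T or NK cell-like cells it had 0 UMIs. Plasma cell-like cells stood between, at 45.7% (34.6 to 57.1). So did neutrophil-like cells, at 39.1% (19.7 to 61.5, on 23 UMIs), and newborn mast cell-like cells, at 34.5% (22.2 to 48.6). The fibroblast markers summed to 4198 CPM in these mast cell-like cells, beside 32575 CPM in newborn fibroblast-like cells. The part of fibroblast RNA in this share was not tested.

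KDELR3 followed a like order. It made up 28.5% of KDEL receptor UMIs in newborn and 31.6% in adult fibroblast-like cells, 17.6% in newborn and 25.8% in adult endothelial-like cells, and 3.08% in newborn and 3.13% in adult T or NK cell-like cells. Levels were 195 CPM in newborn and 191 CPM in adult fibroblast-like cells, against 5.49 CPM (newborn) and 5.30 CPM (adult) for T or NK cell-like cells. SEC23A, a subunit of the inner COPII coat, made up 36.0% of SEC23A and SEC23B UMIs in newborn (33.3 to 38.9) and 63.9% in adult fibroblast-like cells (46.2 to 79.2, on 36 UMIs). In adult endothelial-like cells it was 21.97%, and in adult T or NK cell-like cells 7.99%.

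**Figure D4:**
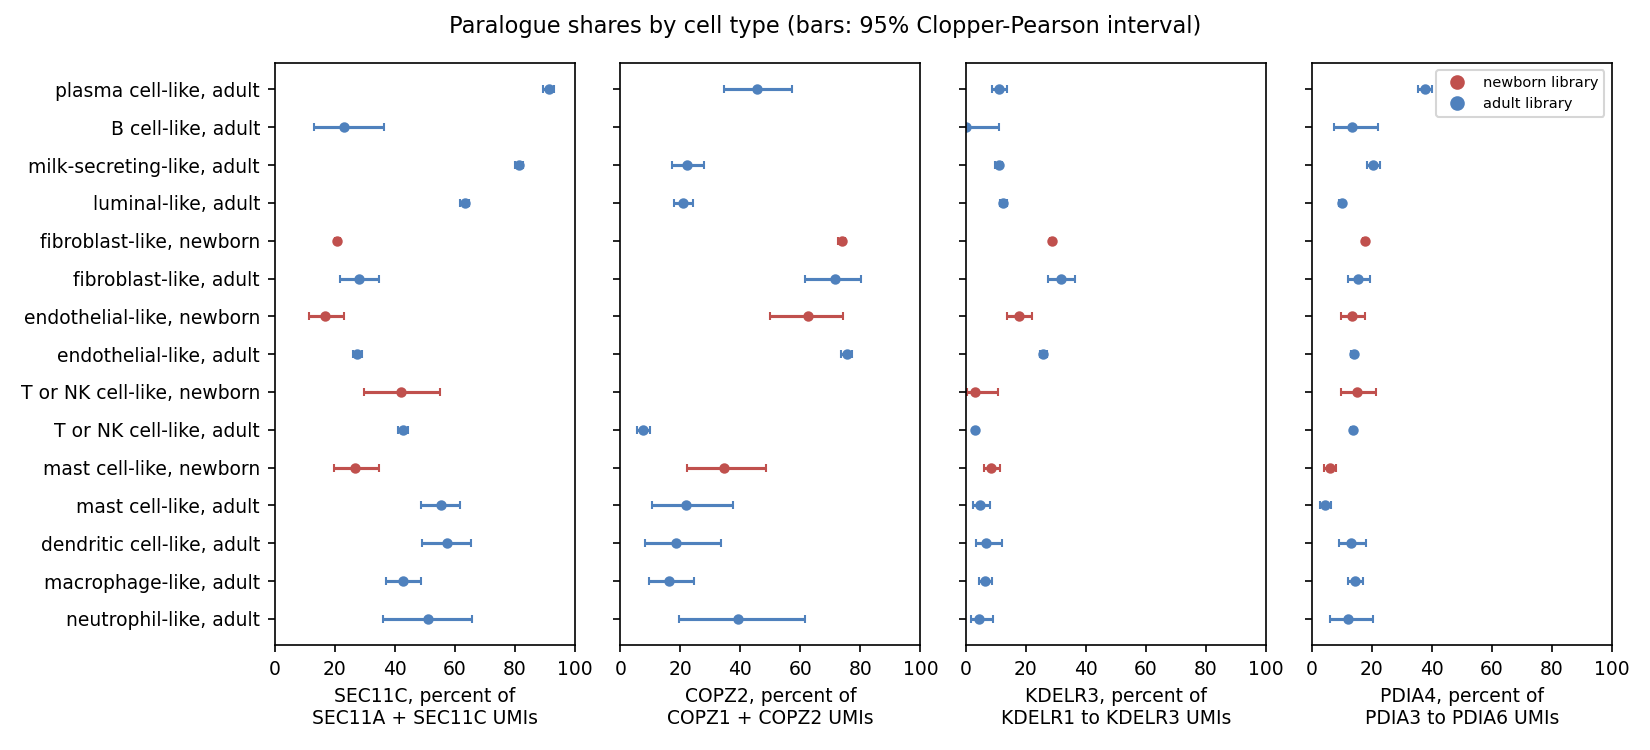
Points give the share of a paralogue in the UMIs of its family for each cell type, with 95% Clopper-Pearson intervals; red marks the newborn and blue the adult library. SEC11C is highest in plasma cell-like (91.5%) and milk-secreting-like (81.4%) cells, COPZ2 and KDELR3 are highest in fibroblast-like and endothelial-like cells, and PDIA4 reaches 37.6% in plasma cell-like cells.

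Newborn and adult cells of the same type could be set side by side for fibroblast-like, endothelial-like, T or NK cell-like and mast cell-like cells. These 4 comparisons share the same pair of libraries. Fibroblast-like cells, which build collagen matrix, numbered 9646 newborn and 209 adult cells. Of 45 measured members, 0 stood 2-fold or more higher in the newborn, against 11.3% of all genes, and 10 were lower, against 34.5% of all genes. The median log2 ratio was -0.43 for members and -0.63 for all genes, so the median member lay above the median gene. Ribosomal protein genes took 26.4% of UMIs in newborn and 13.1% in adult fibroblast-like cells. Outside milk protein, mitochondrial and ribosomal protein genes 5 members were lower and 0 higher, against 27.9% and 13.8% of all genes. With ratios centred on the median gene, 4 members were higher and 2 lower, against 21.4% and 15.4% of all genes.

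The 10 lower genes included 3 of the COPI and 3 of the COPII coat. SEC23A had 8.70 CPM in newborn and 33.0 CPM in adult fibroblast-like cells, a ratio of 0.264 (0.173 to 0.420). COPB2, a COPI subunit, had 34.8 CPM in newborn and 126 CPM in adult cells, a ratio of 0.275 (0.222 to 0.345). COPA, TMED3, SEC24D, COPG1, SEC31A, SEC61A1, TMED7 and SRP14 had ratios of 0.387 to 0.493. The COPI coat genes summed to 385 CPM in newborn and 715 CPM in adult cells, and the COPII coat genes to 170 and 352 CPM in the same order. For 8 of the 10 lower genes the adult level was above that of each of the 11 newborn fibroblast-like clusters, and for 7 it was above every other adult type. COPB2, for example, ranged from 15.5 CPM in cluster N4 to 85.8 CPM in cluster N13. The 10 genes were picked from the summed UMIs of these same clusters, so a high adult level is partly built in. The shares of all genes that do the same were not computed. Cluster N13 was also the highest newborn cluster for COPA, COPG1, SEC23A, SEC24D, SEC61A1 and TMED7. Its median was 1818 UMIs per cell, beside 2237 in adult and 4760 in all newborn fibroblast-like cells. The part of depth in these levels was not tested.

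At the other end stood the TRAP complex and KDELR2. SSR3 had 959 CPM in newborn and 531 CPM in adult fibroblast-like cells, a ratio of 1.81 (1.63 to 2.01), and every one of the 11 newborn clusters, at 733 to 1334 CPM, was above the adult level. SSR3 was picked from the summed UMIs of these same clusters of 1 library, so their place above the adult level is partly built in. The share of all genes that do the same was not computed. KDELR2 had 323 CPM in newborn and 208 CPM in adult cells, a ratio of 1.55 (1.32 to 1.84). SSR2 and SSR4 had ratios of 1.43 and 1.41, and SSR1 of 1.01 (0.874 to 1.17). SRP72, an SRP subunit, and SSRP1 had ratios of 1.18 and 1.13, with intervals that hold 1. The TRAP genes summed to 2755 CPM in newborn and 1874 CPM in adult cells. The genes of the other roles with the highest CPM summed over the 15 cell types had ratios of 0.701 (PDIA3), 0.911 (SEC61G), 1.04 (SPCS3), 0.761 (TMED2) and 0.521 (COPE), while SEC23B and SEC22A did not meet the limits. Adult fibroblast-like cells carried markers of other cells: the milk-secreting markers (5 of 12 detected in newborn, 12 of 12 in adult cells) summed to 200 CPM in newborn and 23736 CPM in adult cells, and the 11 NK cell markers to 3.95 and 254 CPM. The part of these in the ratios was not tested.

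**Figure D5:**
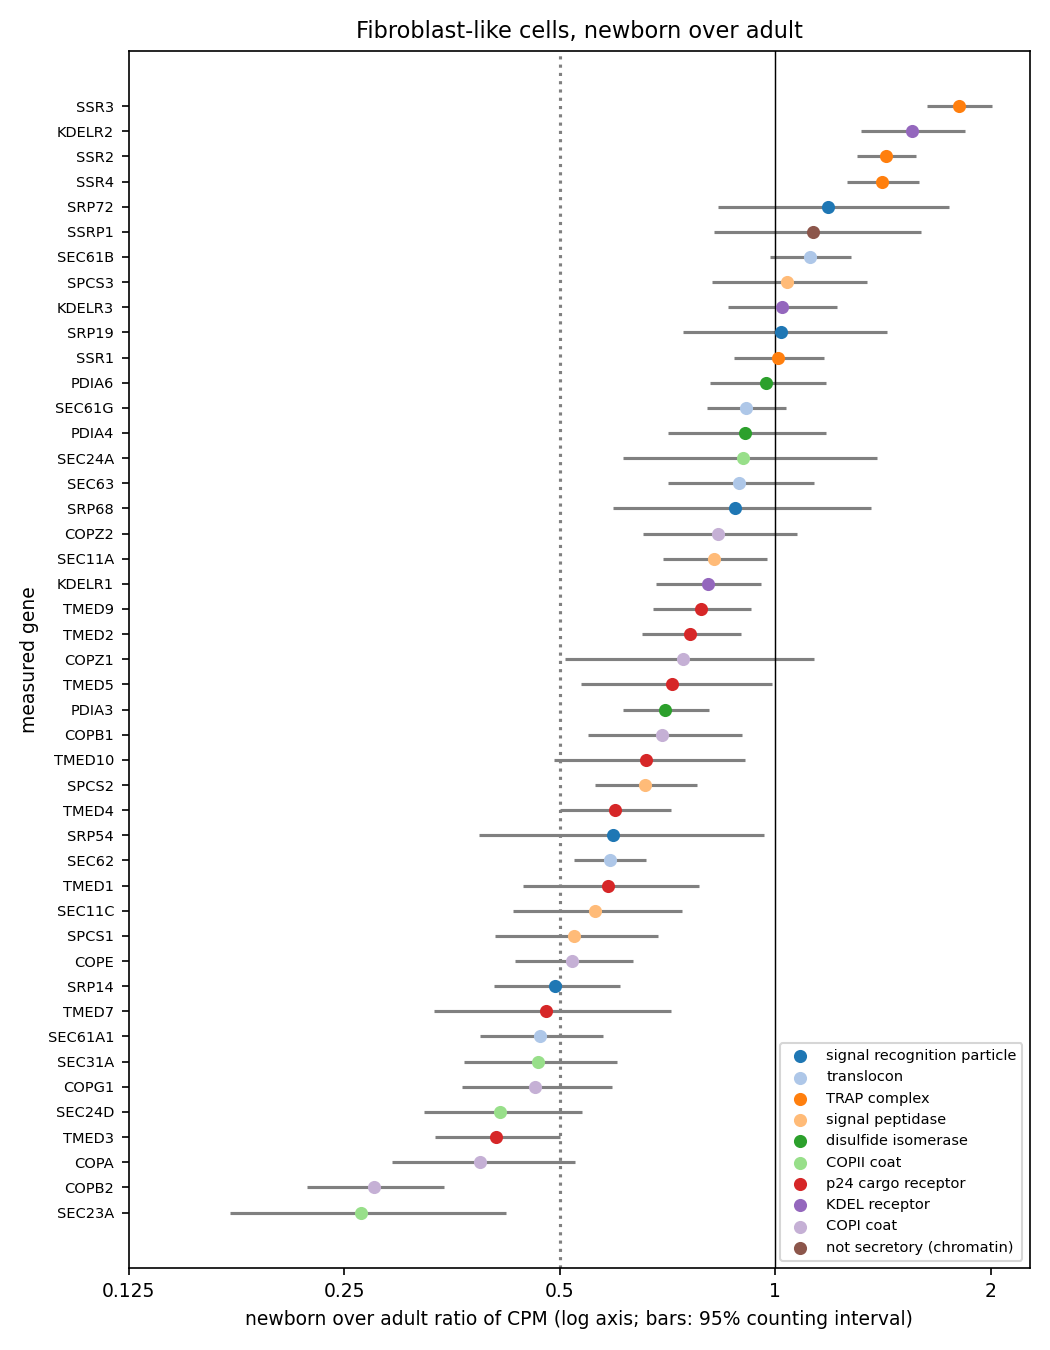
Points give the newborn over adult ratio of CPM of the 45 measured genes in fibroblast-like cells on a log axis, coloured by role, with 95% counting intervals; the dotted line marks a level 2-fold below the adult. The TRAP genes SSR2, SSR3 and SSR4 and KDELR2 are at the top (1.41 to 1.81) and SEC23A (0.264) and COPB2 (0.275) at the bottom.

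Among the pathway lists in fibroblast-like cells, 6 of 9 measured genes of ER-associated degradation were at least 2-fold lower in the newborn, with SYVN1 and SEL1L, parts of one ubiquitin ligase, at ratios of 0.282 and 0.299, while SELENOK had 1.94. With ratios centred on the median gene, 3 of the 9 were lower and 2 higher. The shares of all genes at least 2-fold lower were 34.5% on the whole-UMI scale, 27.9% on the narrower scale and 15.4% when centred on the median gene. Of 17 chaperones and folding enzymes 4 were lower and 0 higher, with SDF2L1 at 0.304 and MANF at 1.84. HSPA5 had 1600 CPM in newborn and 414 CPM in adult cells, a ratio of 3.87, the one translocon partner that was higher, and TMCO1 at 0.419 the one lower of 7. Of 8 ER stress genes 2 were higher, ATF6 (2.98) and DDIT3 (2.17), and 3 lower, with EIF2AK3 at 0.324. For the other lists, 1 of 11 oligosaccharyltransferase genes (RPN1, 0.393), 5 of 14 COPII partners and 4 of 11 COPI partners were lower, and 0 higher. The shares for these partners were near the 34.5% of all genes. On the narrower scale 2 COPII and 4 COPI partners were lower, and centred on the median gene 0 and 3. GOLGA2 and GOLGB1 had ratios of 0.272 and 0.282 and ARFGAP3 of 1.80, and BET1, SEC16A and MCFD2 of 0.367, 0.447 and 1.10.

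In mast cell-like cells (881 newborn and 456 adult cells), 2 of 41 measured members stood 2-fold or more higher in the newborn, against 12.3% of all genes, and 2 lower, against 17.5%. On the narrower scale 2 of 42 were higher and 2 lower, against 13.2% and 16.9%, and centred on the median gene 4 were higher and 2 lower, against 14.7% and 14.3%. SPCS3 had 306 CPM in newborn and 137 CPM in adult cells, a ratio of 2.23 (1.84 to 2.72), and KDELR3 had 32.3 and 10.97 CPM in the same order, a ratio of 2.95 (1.51 to 6.17). SEC11C had 31.5 CPM in newborn and 118 CPM in adult cells, a ratio of 0.267 (0.182 to 0.385), and COPE had 24.2 and 74.98 CPM in the same order, a ratio of 0.323 (0.205 to 0.497). TMED5, SSR3, KDELR2 and PDIA4 had ratios of 1.92, 1.90, 1.59 and 1.56, and TMED3, SRP14, COPB2 and COPA of 0.505, 0.566, 0.581 and 0.636. The 14 fibroblast markers summed to 4198 CPM in newborn and 46.6 CPM in adult mast cell-like cells, beside 32575 CPM in newborn fibroblast-like cells, which have 195 CPM of KDELR3, 99.8 CPM of SPCS3 and 959 CPM of SSR3. The 11 NK cell markers summed to 64.6 CPM in newborn and 1385 CPM in adult mast cell-like cells, and the 12 milk-secreting markers to 58.99 CPM in newborn and 24835 CPM in adult cells. SPCS3 was lower in newborn fibroblast-like than in newborn mast cell-like cells, while KDELR3 and SSR3 were higher in the fibroblast-like cells. The part of RNA from other cells in these ratios was not tested.

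In T or NK cell-like cells (73 newborn and 6864 adult cells), 1 of 31 measured members was at least 2-fold higher in the newborn, against 6.52% of all genes, and 0 lower, against 9.9%. On the narrower scale 1 of 35 was higher and 0 lower, against 4.22% and 14.2%, and centred on the median gene 1 was higher and 0 lower, against 7.29% and 9.2%. TMED3 had 118 CPM in newborn and 49.1 CPM in adult cells, a ratio of 2.40 (1.73 to 3.26). SSR3, COPE, COPG1, KDELR1 and COPB1 had ratios of 1.71, 1.68, 1.63, 1.52 and 1.47. SPCS3, SEC61G, SSRP1, SRP14, SEC62 and TMED4 stood lowest, at ratios of 0.569 to 0.845. The mix within the class differed, since the 12 T cell markers summed to 1287 CPM in newborn and 2993 CPM in adult cells and the 11 NK cell markers to 11418 and 5577 CPM. Fibroblast markers summed to 1691 CPM in newborn and 42.9 CPM in adult cells. The part of either in the ratios was not tested.

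Endothelial-like cells had 103 cells in the newborn (cluster N15, with blood and lymphatic markers together) and 2486 in the adult, most of them from the lymphatic clusters A0 and A7. Of 45 measured members 0 stood 2-fold or more higher in the newborn, against 7.82% of all genes, and 6 lower, against 11%. On the narrower scale 0 of 46 were higher and 6 lower, against 6.42% and 14.3%, and centred on the median gene 0 were higher and 4 lower, against 10.3% and 7.8%. The 6 lower on the whole-UMI scale were COPB2 (0.376), TMED3 (0.418), SEC24C (0.433), COPG1 (0.435), COPZ2 (0.445) and SPCS1 (0.488). SEC24C rested on 8 UMIs in the newborn. SEC23B, SRP72, KDELR2, SSR3, TMED5 and SPCS3 were the highest, at 1.17 to 1.44. Blood endothelial markers summed to 6430 CPM in newborn and 2699 CPM in adult cells, lymphatic markers to 5308 and 7988 CPM, and fibroblast markers to 3463 and 107 CPM, in the same order. The part of these in the ratios was not tested.

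Side by side, SSR3 had 959, 282, 280.0 and 275 CPM in newborn fibroblast-like, endothelial-like, T or NK cell-like and mast cell-like cells, against 531, 219, 164 and 144 CPM in the adult cells of the same types. SRP14, which had 72.2, 110.2, 154 and 125.2 CPM in the newborn types in that order, had 146, 171, 205 and 221 CPM in the adult types. SSR3 and SRP14 are examples, and how many genes keep a single direction in every type was not counted. Fibroblast markers summed to 3463, 1691 and 4198 CPM in newborn endothelial-like, T or NK cell-like and mast cell-like cells. The adult sums were 107, 42.9 and 46.6 CPM in that order. The part of this RNA in the levels was not tested.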

How the data were processed

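Single cells of Holstein mammary gland, 1 library from the newborn and 1 from the lactating adult stage, were measured with a 10x Genomics 3' kit. The authors deposited UMI counts, not normalized, for each gene and barcode; the submitters' processing notes name Cell Ranger 3.1.0. Build and annotation: not given in the sources used here. Coordinates and sequences are therefore left out. The number of cells and of UMIs per class sets the precision, and depth differed between classes, libraries and stages.

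Barcodes with at least 300 genes and at most 20% of UMIs from 13 mitochondrial genes were kept. Scrublet (scanpy 1.11.5), at 0.8% per 1000 cells, marked 0 adult and 399 newborn cells by its automatic threshold, so the top-scoring cells up to the expected rate (11.8% adult, 10.97% newborn) were removed in both. Each library was clustered (2000 variable genes, 30 components, 15 neighbours, Leiden resolution 1, seed 1) without the 59 genes. Clusters were named from 17 marker lists (at least 3 markers and 30% of the list held at 20 CPM and 25% of the highest level). Mixed clusters of at least 100 cells were split again. A cluster that held 2 lists equally stayed unnamed, a rule set after the data were seen. A cluster also stayed unnamed if its leading genes belonged to a different kind of cell. By this rule N6 and N10, with 6 and 9 of the 14 fibroblast markers, were left out of the fibroblast-like class. A cell entered a class if its cluster bore the name and it held at least 2 of that list's markers.

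UMIs were summed per class. Counts were compared as ratios of CPM with exact conditional binomial intervals, levels with exact Poisson and shares with Clopper-Pearson intervals. Genes at 0 UMIs were set to a floor of 3 UMIs. A gene was measured at 20 UMIs and 20 CPM in the higher class, and called at 2-fold. Named genes were the 6 largest and 6 smallest ratios of each comparison and the gene of each role with the highest CPM summed over the cell types. Genes of pathway lists were taken, though not all of them are printed, from the 2 ratios farthest out on the side of a list's median and the farthest on the opposite side. The members and lists were chosen with earlier results of these data known. The ratio and call rule was tested on simulated counts. In all 11 alternatives were planned, and 4 more were chosen after seeing the data. Of the 59 symbols, 59 matched the RefSeq gene table (ARS-UCD2.0), used for names only.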

Additional observations from a re-analysis of the deposited data

Results flagged for a closer look

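In 6 genes the newborn over adult ratio pointed in opposite directions in different cell types, at least 2-fold in one and with a counting interval beyond 1 in the other. The difference between cell types was not tested. How many of all genes do the same was not counted, so the 6 genes are listed as examples and not as a trait of the set. TMED3 had ratios of 2.40 in T or NK cell-like, 0.418 in endothelial-like, 0.407 in fibroblast-like and 0.505 in mast cell-like cells. For SPCS3 the ratio was 2.23 in mast cell-like cells, against 0.569 in T or NK cell-like cells. For KDELR3 it was 2.95 in mast cell-like and 0.730 in endothelial-like cells. COPE had 1.68 in T or NK cell-like cells, against 0.323 in mast cell-like cells. COPG1 had 1.63 in T or NK cell-like cells, 0.435 in endothelial-like and 0.462 in fibroblast-like cells. SEC61A1 had 0.470 in fibroblast-like and 1.55 in mast cell-like cells.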

How the results depend on the processing

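No paired analysis was possible because each stage had 1 library, and for the same reason no replicate could be left out. The counts of members at least 2-fold apart changed with the scale and with other settings of the processing. In milk-secreting-like over luminal-like cells, 6 were higher and 0 lower outside milk protein, mitochondrial and ribosomal protein genes, 12 higher and 0 lower with the median of ratios, and 24 lower at 50 UMIs and 50 CPM. Both scalings move all genes by 1 factor, so the sign changes carry nothing about single genes. Of the named genes at least 2-fold lower on the whole-UMI scale, 8 changed sign on the narrower scale and with the median of ratios, with these log2 ratios in that order: COPE 0.35 and 0.53, KDELR2 0.60 and 0.78, SEC23B 0.26 and 0.45, SEC61B 1.00 and 1.18, SPCS3 0.96 and 1.14, SRP14 0.61 and 0.80, SSR4 0.99 and 1.17, TMED2 0.45 and 0.63. In plasma cell-like over B cell-like cells, the lower count was 0 by the per-cell gate alone, with the median of ratios, at 50 UMIs and 50 CPM, and without cluster A18.1 (chosen after seeing the data), and 4 with 1 UMI in each class. In newborn over adult fibroblast-like cells, the higher count was 1 without doublet removal or with means over cells and 4 with the median of ratios; the lower count was 5 on the narrower scale, 2 with the median of ratios and 17 with 1 UMI in each class. For mast cell-like cells the higher count was 4 without doublet removal, with the median of ratios and with 1 UMI in each class, and 1 by the gate alone or at 50 UMIs and 50 CPM; the lower count was 4 with 1 UMI in each class. For T or NK cell-like cells the higher count was 3 without doublet removal or by the gate alone, 2 at 500 genes per cell, 0 at 50 UMIs and 50 CPM and 6 with 1 UMI in each class, and the lower count 1 at Leiden resolution 2, with means over cells and with 1 UMI in each class. For endothelial-like cells the higher count was 1 with means over cells and with 1 UMI in each class, and the lower count 3 without doublet removal and 10 with means over cells. The cause of these changes was not tested. The other 106 counts stayed within 1.5 times. Depth limits the B cell-like class (326495 UMIs) and the newborn T or NK cell-like class (364350 UMIs) most.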
